A study of Drosophila melanogaster with 39 samples.

Results

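Cul4 is a cullin, a protein on which the parts of a ubiquitin ligase assemble, and most of its reproducible ChIP-seq sites in *Drosophila* Kc167 cells lay at promoters together with the insulator protein CP190. Described here are the promoter sites of Cul4 that had no such CP190 site. They were 868 of the 3720 sites found in control cells with a rabbit antibody against Cul4 (23.3%). Sites were chosen by the control peak lists alone. Peaks of the 3 control libraries of a factor were merged where they overlapped by 1 bp, and a site was a merged region with a peak of all 3. A Cul4 site was kept when it overlapped no CP190 site and no Su(Hw) site and touched a promoter, which was the transcription start site (TSS) of any annotated transcript with the 1500 bp upstream of it. The other promoter sites that serve below as a reference are the 2226 that overlapped a CP190 site but no Su(Hw) site (59.8%). Because control peaks of Cul4, CP190 and Su(Hw) selected the members, control calls of these factors at the 868 are given as a description and were not tested. Tests between treatments judged each control library on members defined from the other control libraries.

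The study asked how the ubiquitin factors Eff, an E2 conjugating enzyme, and Cul4 bear on the *gypsy* insulator, whose DNA is bound by the zinc-finger protein Su(Hw) with CP190 as a partner. Kc167 is a line of embryonic origin and hemocyte (blood cell) type, and all samples are this 1 line. Cells were harvested after 4 days with dsRNA against *mcherry*, a gene that fly cells lack, as the control, against *eff* or against *cul4*. ChIP for Cul4 (rabbit antibody), CP190 and Su(Hw) was done in each of the 3 treatments, and ChIP with a mouse antibody against Cul4 in control cells, with 3 libraries in each of these 10 groups. Both knockdowns share the same control libraries. The labels call the libraries biological replicates but name no separate cultures, so p-values measure only the spread between these libraries.

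Promoters of fly genes fall broadly into classes. Promoters of genes that every cell uses often carry motif 1, the binding sequence of M1BP, or the DRE, a sequence bound by DREF and by the insulator protein BEAF-32, and many of them face a second gene on the other strand. Promoters of genes that are switched on by signals or in certain tissues more often carry an initiator, a TATA box or GA-rich stretches that the GAGA factor binds. CP190 is brought to promoters largely by DNA-binding partners. Cul4 is not known to bind a DNA sequence of its own and acts with adaptor proteins that choose its substrates.

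The sequences below run 75 bases to either side of the Cul4 summit of 8 members, taken in the order of control fold enrichment from the members named below for high fold, for the mouse antibody or for peaks that stayed after *eff* knockdown. They are shown as examples of strong Cul4 peaks without a CP190 site, which needs a peak in all 3 control libraries. Peaks of CP190 in fewer libraries were there at some of them. CP190 had a peak in 2 control libraries at *csw* (fold 6.18 and 4.30), *alpha-Man-Ia* (6.32 and 3.52) and *COX7AL2* (2.68 and 2.09) and in 1 at *CG15728* (4.01), and at *COX7AL2* all 3 *eff* knockdown libraries had one too (3.26, 3.12 and 3.62). All are dm6 (release 6 of the *Drosophila* genome), plus strand, and none overlaps an annotated UTR. Capitals mark matches, on either strand, to 12 motifs listed with their letters further on and to 2 octamers, CAAGCAGT and CACACACA, that were added after these sequences had been read.
csw, chrX:2106495-2106645: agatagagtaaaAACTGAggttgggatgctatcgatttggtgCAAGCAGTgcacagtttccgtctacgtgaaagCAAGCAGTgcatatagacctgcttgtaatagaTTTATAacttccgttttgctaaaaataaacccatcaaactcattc
disco-r, chrX:16149161-16149311: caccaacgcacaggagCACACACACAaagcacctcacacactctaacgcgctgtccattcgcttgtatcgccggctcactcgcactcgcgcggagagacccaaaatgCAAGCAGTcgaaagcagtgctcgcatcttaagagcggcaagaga
grn, chr3R:8181492-8181642: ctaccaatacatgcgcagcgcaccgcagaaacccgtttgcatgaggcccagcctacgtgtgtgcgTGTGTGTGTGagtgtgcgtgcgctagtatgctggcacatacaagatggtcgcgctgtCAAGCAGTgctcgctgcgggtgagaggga
alpha-Man-Ia, chrX:10309145-10309295: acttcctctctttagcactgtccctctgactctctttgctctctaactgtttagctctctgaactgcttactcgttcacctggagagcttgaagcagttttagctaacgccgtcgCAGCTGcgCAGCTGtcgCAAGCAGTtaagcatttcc
CG15728, chrX:12625993-12626143: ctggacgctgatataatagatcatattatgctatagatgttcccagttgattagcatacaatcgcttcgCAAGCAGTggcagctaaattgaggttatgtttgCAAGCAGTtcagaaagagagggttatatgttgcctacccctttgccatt
COX7AL2, chr2L:2196646-2196796: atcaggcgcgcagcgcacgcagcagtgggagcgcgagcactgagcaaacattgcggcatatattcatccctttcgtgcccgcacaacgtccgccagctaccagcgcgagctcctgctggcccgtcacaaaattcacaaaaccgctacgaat
disco, chrX:16216995-16217145: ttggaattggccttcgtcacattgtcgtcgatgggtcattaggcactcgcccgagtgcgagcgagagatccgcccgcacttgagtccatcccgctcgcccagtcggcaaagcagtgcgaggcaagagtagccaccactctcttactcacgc
lncRNA:CR31840, chr2L:14024327-14024477: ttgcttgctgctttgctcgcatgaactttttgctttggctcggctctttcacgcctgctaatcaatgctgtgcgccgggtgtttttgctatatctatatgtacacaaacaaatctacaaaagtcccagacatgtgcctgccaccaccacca

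CAAGCAGT stood in capitals in 5 of these 8 windows, those of *csw* (the tyrosine phosphatase Corkscrew), *disco-r*, *grn* (a GATA factor), *alpha-Man-Ia* (a mannosidase of the Golgi) and *CG15728*. Those of *csw* and *CG15728* held it 2 times each. M1BP and DRE letters were in none of the 8. Since the octamer was picked from these windows, its presence in them is no result, and its share over all members is given with the other motifs.

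The 10 members with the highest control fold percentile lay at *csw*, *kn* (the transcription factor Collier), *disco-r*, *grn*, *alpha-Man-Ia*, *CG15728*, *COX7AL2*, *disco*, *ths* (a ligand of the FGF type) and *mir-4978*. The fold is the pileup at the summit over the local background, as the authors' peak caller gave it for each library, and a percentile ranks it within its own list. At the *csw* site (chrX:2106080-2106948, summit 1679 bp upstream of the nearest TSS) the fold was 18.2, 14.7 and 18.4 in the control libraries, 4.39 and 5.00 in 2 *eff* knockdown libraries with no peak in the third, and 15.3, 18.8 and 15.9 in the *cul4* knockdown libraries. At the *disco* site (chrX:16216527-16217876), whose gene encodes the zinc-finger protein Disconnected, it was 11.2, 9.12 and 9.78 in control, 3.11 and 4.33 in 2 *eff* knockdown libraries, and 12.8, 17.2 and 12.6 after *cul4* knockdown. At both sites the control and *cul4* knockdown libraries had peaks of high fold, and the *eff* knockdown libraries had lower folds or no peak. The site at *COX7AL2* (chr2L:2196100-2198354, summit 1191 bp downstream of a TSS) went the other way. Its fold was 10.2, 8.91 and 12.8 in control, 8.37, 9.75 and 29.1 after *eff* knockdown, and *cul4* knockdown gave 3.30, 4.63 and 4.79, so that all *cul4* knockdown values lay below all control values. The *mir-4978* site (chr2R:14006645-14007362) had 10.3, 7.49 and 10.9 in control, 7.12, 8.83 and 18.3 after *eff* knockdown, and *cul4* knockdown gave 3.10, 4.57 and 4.15. Folds are set against each library's own background, which differed between libraries, so they are placed side by side here and were not tested.

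**Figure D1:**
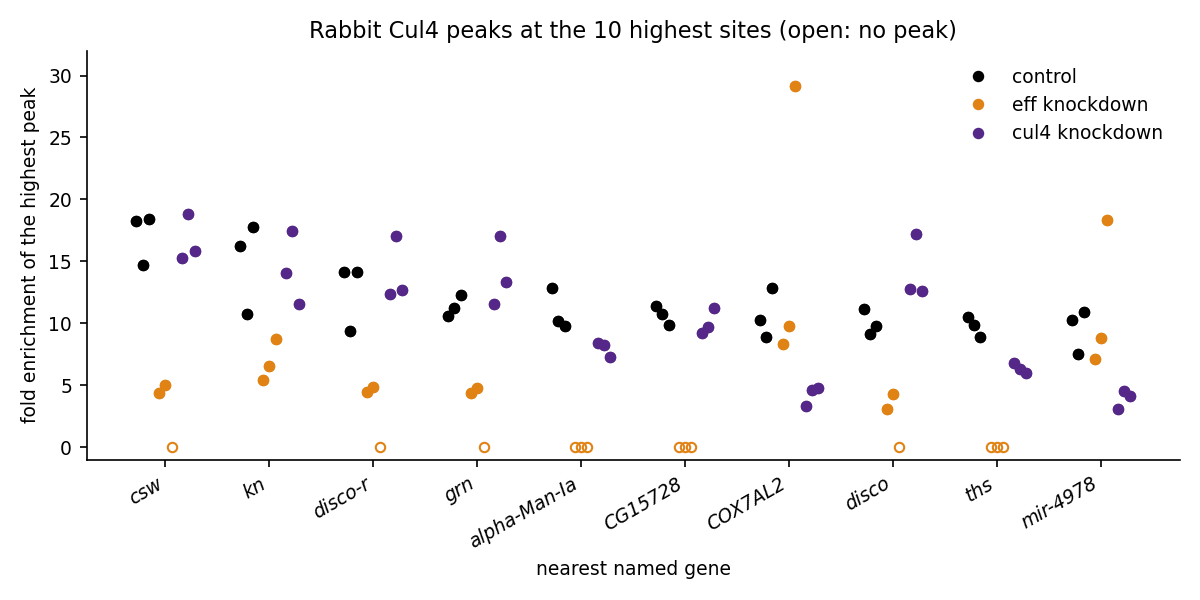
Fold enrichment of the highest rabbit Cul4 peak (vertical axis) at the 10 members with the highest control fold percentile (horizontal axis, by nearest named gene), 1 filled point for each of 3 control, 3 *eff* knockdown and 3 *cul4* knockdown libraries and an open point at 0 where a library had no peak. The *eff* knockdown points lie below all control points, or at 0, at *csw*, *kn*, *disco-r*, *grn* and *disco*, and all are at 0 at *alpha-Man-Ia*, *CG15728* and *ths*. The *cul4* knockdown points lie below all control points at *alpha-Man-Ia*, *ths*, *COX7AL2* and *mir-4978*.

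Members were promoter-proximal sites of ordinary strength. Their median width was 530 bp against 566 bp for promoter Cul4 sites with CP190, and their median control fold percentile was 57.0 against 55.2. The control fold at members ranged from 1.82 to 18.4, with medians of 3.90, 4.09 and 4.21 in the 3 libraries. The summit lay a median of 70 bp from the nearest TSS (76 bp with CP190) and within 250 bp of one at 741 members (85.4%, against 91.3% with CP190). They were spread over the arms with 206 on 3R, 200 on 2R, 161 on 3L, 159 on X, 139 on 2L and 3 on chromosome 4. The strands of the genes were compared as well. Promoters of protein-coding genes on both strands were touched by 121 members (13.9%) and by 1163 sites with CP190 (52.2%). A promoter reaches 1500 bp upstream, so such genes need not begin at the site itself. The difference was not tested, since neighbouring sites share genes and are not replicates. The nearest CP190 site was a median of 4584 bp away, and 126 members (14.5%) had one within 1 kb. At the edges of the rule, 30 members overlapped a promoter by at most 100 bp, and 12 of the 323 Cul4 sites without CP190 or Su(Hw) that lay away from promoters were within 100 bp of one.

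Without a CP190 site does not mean without any CP190 peak, since a site needed a peak in all 3 libraries. At 660 members (76.0%) no control library had a CP190 peak, at 47 there was a peak in 1, and at 161 (18.5%) in 2. In control libraries 1, 2 and 3 CP190 was called at 22.6%, 0% and 19.9% of the members. Control library 2, which had the fewest CP190 peaks of the control libraries (7358 against 9149 and 8894), thus decided the class of the 161. Its peaks were almost a subset of the others, with 99.9% of them overlapped in library 3. CP190 at these 161 members was weak, with a median fold of 3.99 and 3.52 in libraries 1 and 3 against 8.34 and 7.74 at the promoter Cul4 sites with CP190. Peaks at members made up 2.17% and 1.94% of these 2 lists.

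CP190 at the members was compared between treatments with each control library judged on members defined from the other control libraries, so that no library helped to choose what it was tested on. By this measure CP190 was called at 22.9%, 0% and 20.7% of members in control (14.5% ± 12.6, SD, n = 3), at 7.36%, 6.90% and 5.58% after *eff* knockdown (6.61% ± 0.926) and at 8.26%, 3.81% and 1.91% after *cul4* knockdown (4.66% ± 3.26). Control library 2 was below and the other control libraries above every knockdown library, so the groups overlapped. Since 99.9% of the peaks of library 2 were overlapped in library 3, members defined from libraries 1 and 3 left it almost no peak. Its 0% thus follows in large part from that choice. With this value below every knockdown value, the test could not give its smallest p. The differences of -7.92 and -9.87 percentage points each gave p = 0.4 (exact permutation test, two-sided). With 3 libraries on each side no p below 0.1 can be reached. Without control library 2 the differences were -3.67 and -3.81, each with an exact permutation p of 0.1, again the smallest possible. As a background, 11483 windows of 529 bp around start sites with no control site of any factor were counted. They were a fixed set, with no library left out. These windows were chosen on the same control lists, so their control values, including the 0% of library 2, follow in part from that choice. There CP190 was called in 7.79%, 0% and 6.91% of windows in control, 4.45%, 3.99% and 3.10% after *eff* knockdown, and *cul4* knockdown gave 5.15%, 2.35% and 1.07%. With CP190 lists of equal length the differences at members were -0.519 and -0.233.

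With the deposited lists and an overlap of 1 bp no member gained CP190, meaning a peak in no control library and in all 3 libraries of a knockdown. The counts after *eff* and *cul4* knockdown were 2 and 2 where an overlap of 50% was asked, and 4 and 13 with lists of equal length. With the deposited lists the count was 0 in both knockdowns, and of the 11483 windows 1 gained it with *eff* dsRNA (0.00871%) and 0 with *cul4* dsRNA (0%). Of the 660 members with no CP190 peak in control, 3 had one in any *eff* knockdown library and 3 in any *cul4* knockdown library. Of the 161 with CP190 in 2 control libraries, 63 (39.1%) had it in all 3 *eff* knockdown libraries and 21 (13.0%) in all 3 *cul4* knockdown libraries. Among all 231 Cul4 sites with CP190 in 2 control libraries these counts were 83 (35.9%) and 22 (9.52%). The 231 include the 161 members, so 63 of the 83 and 21 of the 22 are members. Su(Hw) was close to absent throughout. It was called at 0 members in every control library and at no more than 2 members (0.230%) in any knockdown library, and its leave-out shares differed from control by 0.0512 percentage points with *eff* dsRNA (exact permutation p = 0.7) and by 0.0384 with *cul4* dsRNA (exact permutation p = 0.4).

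**Figure D2:**
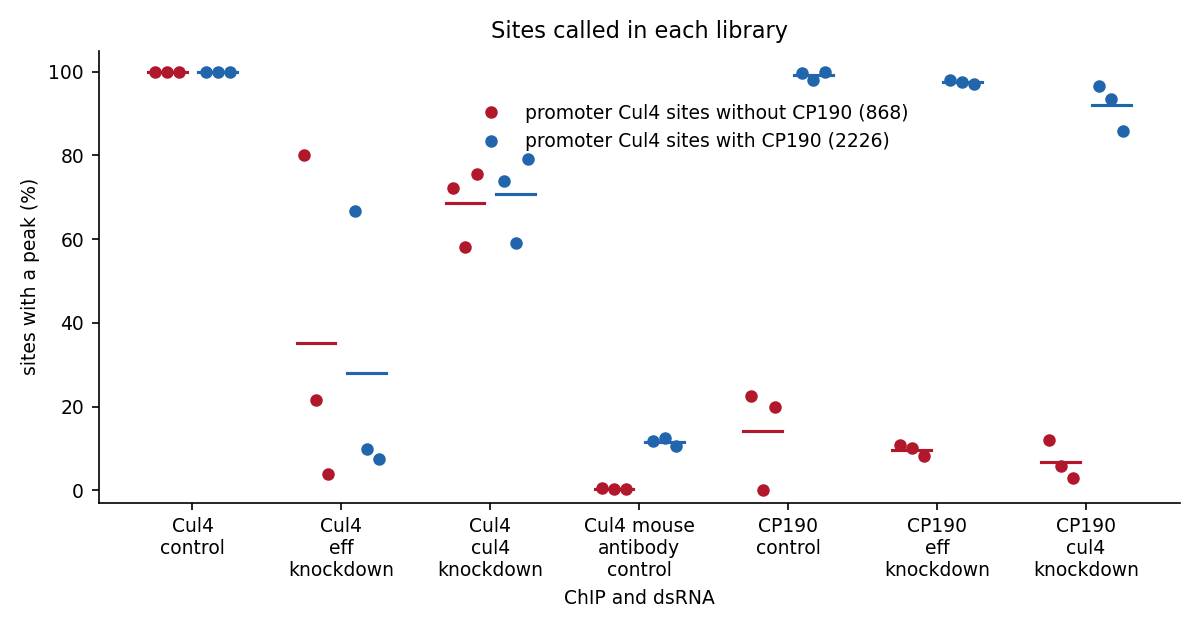
Percent of sites with a peak in each library (vertical axis) by ChIP and dsRNA treatment (horizontal axis), for the 868 members and the 2226 promoter Cul4 sites with CP190. Points are libraries 1 to 3 from left to right and bars their means, and the control points of Cul4 are at 100% because the rule set them there; the mouse antibody found almost none of the members.

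The mouse antibody against Cul4, an independent reagent on control cells, gave peaks at 5, 3 and 3 members (0.576%, 0.346% and 0.346%). At promoter Cul4 sites with CP190 it gave peaks at 261, 277 and 238 (11.7%, 12.4% and 10.7%). The mean difference was -11.2 percentage points, with members lower in all 3 libraries (exact sign-flip test, p = 0.25, the smallest p that 3 libraries allow). At least 1 mouse library called 5 members, against 477 of all 3720 Cul4 sites (12.8%). Few calls were not particular to members. Of the 323 Cul4 sites away from promoters without CP190 or Su(Hw), 7 (2.17%) were called in this sense. The mouse lists were short, with 809 to 933 peaks, and called strong sites more often. In the highest quartile of control fold percentile in the rabbit lists at least 1 mouse library called 3 of 186 members (1.61%) and 139 of 514 sites with CP190 (27.0%). In the lowest quartile it was 0 of 226 members and 32 of 537 sites with CP190 (5.96%). The 3 members called in all 3 mouse libraries were the *COX7AL2* and *mir-4978* sites and a site 667 bp upstream of *mam*, which encodes Mastermind, a coactivator of Notch (chr2R:14008230-14009542). The *mir-4978* site (chr2R:14006645-14007362) and the *mam* site are neighbours, so the 3 members are not 3 separate places. These same 3 members were called by the rabbit antibody in all *eff* and *cul4* knockdown libraries too.

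After *eff* knockdown the Cul4 libraries were unequal, which bears on every value that follows. They held 4488, 571 and 424 peaks against 4447, 5355 and 4469 in control, and the lowest background that their peaks imply was 33.2, 19.4 and 4.49 reads at a summit, and library 3 called no member below a fold of 2.99. Members were called in 695, 188 and 34 of 868 (80.1%, 21.7% and 3.92%), and every member called in library 2 or 3 was also called in library 1. Sites with CP190 were called at 66.8%, 9.97% and 7.50%. Library 1 and 2 thus kept a larger share of members than of sites with CP190, and library 3 a smaller one. A peak list cannot tell fewer bound cells from weaker binding in each cell.

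Judged on members that did not depend on the library tested, the Cul4 share was 92.7%, 97.8% and 89.8% in control (93.4% ± 4.01, SD, n = 3) and 77.6%, 20.2% and 3.68% after *eff* knockdown (33.8% ± 38.8). All knockdown values lay below all control values, and the difference was -59.6 percentage points (two-sided exact permutation p = 0.1, the smallest possible). It was -81.5 without library 1 of the *eff* knockdown, and -35.9 with every list cut to its top 424 peaks, where 31 members remained (p = 0.1 by the same exact test). The fall was not shown to differ from that of promoter Cul4 sites with CP190, which went from 94.5% to 27.0%. The members' change was smaller by 7.86 percentage points, with an exact permutation p of 0.4 and with library 3 on the other side, and without library 1 by 4.69. Without library 3 it was smaller by 13.0 percentage points (exact permutation p = 0.1, the smallest possible).

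No *eff* knockdown library called Cul4 at 173 members (19.9%), where 29.0% of all Cul4 sites were lost in this sense, and all 3 libraries called it at 31 (3.57%, against 5.19% of all sites). The first count rests on library 1, since 677 members had no peak in libraries 2 and 3, and it was 91 among the 660 members with no CP190 peak in any control library. In each quartile of control fold percentile the share of members lost was below that of sites with CP190. It was 21.2% against 44.1% in the lowest quartile, 25.1% against 34.4% and 18.2% against 32.1% in the middle ones, and 15.1% against 21.8% in the highest. Among the 31 that stayed, the 10 with the highest control fold were the sites at *kn*, *COX7AL2* (2 sites), *mir-4978*, *mam*, *lncRNA:CR31840*, *lncRNA:CR45352* with *NimC3* (a receptor of the Nimrod family), *Atf3* (a bZIP factor), *Arc1* with *Arc2*, and *Act5C* (a cytoplasmic actin). Some of these are neighbours. They are the 2 *COX7AL2* sites, those at *mir-4978* and *mam*, and those at *lncRNA:CR45352* (chr2L:14021505-14022146) and *lncRNA:CR31840* (chr2L:14023951-14025046). At *Atf3* (chrX:1274630-1275972) the fold was 8.89, 6.77 and 6.08 in control and 4.32, 4.28 and 5.55 after *eff* knockdown. At *Act5C* (chrX:5901352-5902397) it was 6.43, 5.37 and 6.49 in control and 3.34, 2.50 and 5.86 after *eff* knockdown. Both had a peak in every library of the deposited lists, but at a −log10 q of at least 20 each was called in 2 of the 3 *eff* knockdown libraries. The *Atf3* folds lay below all control folds while those of *Act5C* overlapped them.

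**Figure D3:**
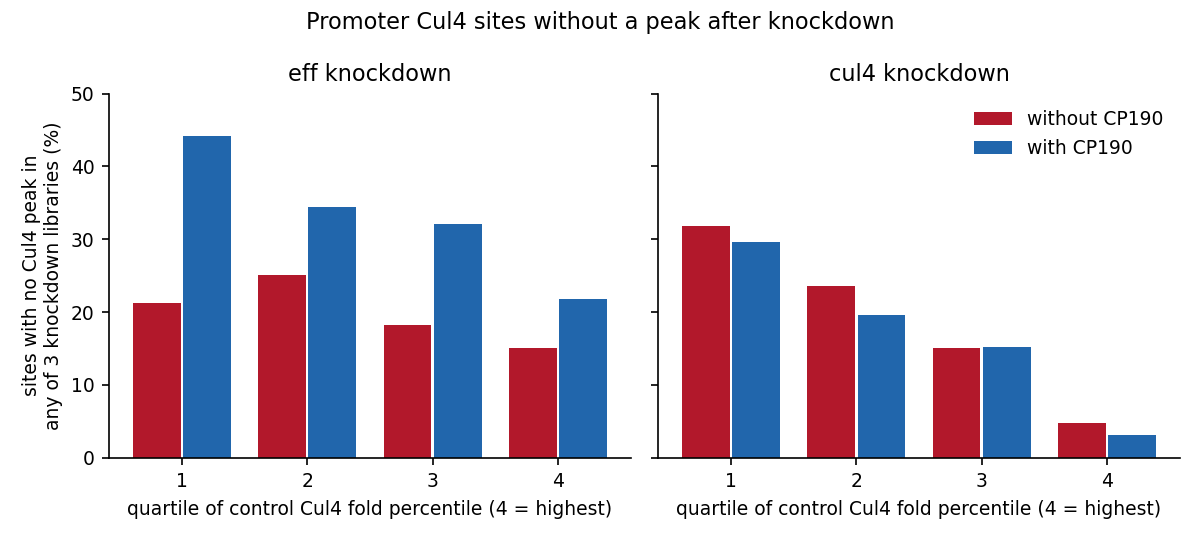
Percent of promoter Cul4 sites with no Cul4 peak in any of 3 knockdown libraries (vertical axis) by quartile of control fold percentile over all Cul4 sites (horizontal axis, 4 is the highest), for members and for sites with CP190. After *eff* knockdown, where the count rests on 1 library, fewer members were lost in each quartile; after *cul4* knockdown the share fell from 31.9% to 4.84% of members and from 29.6% to 3.11% of sites with CP190.

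Knockdown of *cul4*, whose product is what this ChIP recovers, left 3037, 2378 and 3431 Cul4 peaks, all fewer than in control. Members were called at 72.1%, 58.1% and 75.6%. The leave-out share was 68.7%, 54.9% and 72.3% (65.3% ± 9.23, SD, n = 3), below all control values, and the difference was -28.1 percentage points (exact permutation p = 0.1). With every list cut to its top 2378 peaks, which left 444 members, it was -8.43. For sites with CP190 it went from 94.5% to 67.8%, and the members' change differed from theirs by -1.49 percentage points (exact permutation p = 0.3). The counts were also near those of all sites. Cul4 was lost at 167 members (19.2%, against 20.6% of all Cul4 sites) and called in all 3 libraries at 486 (56.0%, against 54.8%). Loss followed strength, from 72 of 226 members in the lowest quartile of control fold to 9 of 186 in the highest. The median fold of the members still called was 4.04, 4.63 and 4.47, no lower than the 3.90 to 4.21 of control. Folds of a knockdown are those of the sites that stayed, which were the stronger ones.

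Read over both knockdowns, 63 members (7.26%) were called in no knockdown library, against 10.1% of all Cul4 sites, and 30 (3.46%) in all 9 rabbit libraries, against 4.92%. In no *eff* but every *cul4* knockdown library there were 50 (5.76%), against 9.33% of all Cul4 sites, and 1 (0.115%) the other way round, against 0.188%. That 1 was the second *COX7AL2* site (chr2L:2198506-2199342), with a fold of 7.67, 8.02 and 7.94 in control, 5.42, 4.37 and 7.19 after *eff* knockdown and no peak after *cul4* knockdown. The 10 strongest of the 63 lay at *RpL38*, *CG33217*, *fz* (the Wnt receptor Frizzled), *Nipped-A* (a large subunit of histone acetyltransferase complexes), *IntS3* (a subunit of the Integrator complex), *milt* (an adaptor of mitochondria to kinesin), *Tim17b*, *CkIIalpha* (casein kinase II), *CG11825* with *Prx6b*, and *CG17883*. At *fz* (chr3L:14274206-14274583) the control fold was 4.88, 4.51 and 5.72. *RpL38*, which encodes a protein of the large ribosomal subunit, had 4.99, 4.76 and 6.58. Over these 10 sites the control fold ran from 3.82 to 6.58, well short of the 18.4 of the highest member, and all 6 knockdown libraries were without a Cul4 peak. CP190 had a peak in 2 control libraries at *CG33217*, *Nipped-A*, *IntS3* and *CG17883* and in 1 at *RpL38*, *Tim17b* and *CkIIalpha*. At *fz*, *milt* and *CG11825* no control library had one. Sites with such a CP190 peak were grouped in position. *IntS3*, *RpL38*, *CG17883* and *Nipped-A* lay within chr2R:4242647-5251248. *CG33217* and *CkIIalpha* lay within chr3L:23099462-23126284, and *Tim17b* at chr3R:3733878-3734343. The part of location in these calls was not tested.

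The genes at the members were 1005 of 17873 named genes (5.62%). They comprised 870 protein-coding genes, 109 genes of class ncRNA, 9 snoRNA, 8 tRNA and 4 snRNA genes and 5 pseudogenes. A single named gene was at 639 members, and 111 genes had 2 or more member sites at their promoters. *fru*, *ps* and *shn* had 4 each. Sites with CP190 lay at 3719 genes, 127 of them snoRNA genes, and had 1 named gene at only 877 of 2226. The gene lists that follow were chosen with earlier results on these data known, and shares are a description beside the 5.62% of all named genes and the 6.22% of protein-coding genes.

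Genes of the ecdysone response were the list with the largest share among the 26 lists. Ecdysone is the steroid hormone that triggers molting and to which Kc cells respond. Of 24 genes 12 had a member at a promoter (50%) and 8 a Cul4 site with CP190 (33.3%). The 12 included the receptor subunit *EcR*, its coactivator *tai*, the nuclear receptors *Eip75B*, *Eip78C* and *ftz-f1*, the ETS factor *Eip74EF* and the transporter *E23*. *Eip75B* had 2 member sites. That at chr3L:17961425-17961986 had a fold of 5.00, 6.53 and 6.49 in control, 3.58 and 3.41 in *eff* knockdown libraries 1 and 2, and 5.74, 5.49 and 6.16 after *cul4* knockdown. That at chr3L:17970936-17971451 had 5.60, 5.42 and 5.70 in control, 3.90 and 3.89 in the same *eff* knockdown libraries and 4.31, 4.71 and 5.03 after *cul4* knockdown. The *EcR* site (chr2R:6131627-6132336) had 5.31, 3.57 and 5.63 in control, 2.81 and 2.48 in the same *eff* knockdown libraries and 3.71, 4.70 and 4.34 after *cul4* knockdown. Folds after *eff* knockdown were below the control range at all 3 of these sites. Those after *cul4* knockdown were below it at the second *Eip75B* site and within it at the other two. None of the sites of *EcR*, *Eip75B*, *ftz-f1*, *Eip74EF* or *tai* had a CP190 peak in any control library. The nearest CP190 site was 114 bp from the first *Eip75B* site and 402 bp from 1 *Eip74EF* site. From the other sites of these genes it was 1662 to 18323 bp away.

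Genes of the blood cell lineage and of secreted matrix also held members. Of 30 hemocyte genes 9 had one (30%, and 9 had a site with CP190), among them the GATA factor *srp* with 3 sites, its partner *ush*, the repressor *zfh1*, the matrix protein genes *LanA*, *SPARC* and *vkg*, the protease *Mmp1* and the ferritin gene *Fer1HCH*. At the *LanA* site (laminin alpha chain, chr3L:6217561-6218818) the fold was 9.31, 6.33 and 8.41 in control, 3.08 and 3.33 in *eff* knockdown libraries 1 and 2, and 8.03, 7.1 and 7.39 after *cul4* knockdown. At *zfh1* (chr3R:30765552-30766236) it was 3.97, 4.09 and 4.64 in control, 3.72, 2.60 and 5.13 after *eff* knockdown, and *cul4* knockdown gave 6.09, 7.61 and 8.32. The *zfh1* values after *cul4* knockdown were above all its control values, while the *LanA* values overlapped control. At *vkg*, which encodes a chain of collagen IV, the site was weak (3.26, 3.80 and 4.22 in control) and had no peak in any knockdown library. *CG3036*, drawn by the study beside its ChIP tracks as *vkg* is, had 4.83, 4.23 and 4.77 in control, 3.4 in 1 *eff* knockdown library and 5.49, 4.44 and 4.72 after *cul4* knockdown.

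Lists for signalling, glycolysis and heat shock genes followed. Members were at 12 of 40 genes of the Notch, Wnt, Hippo, Hedgehog and TGF-beta pathways (30%), such as the ligands *wg* and *Ser*, the receptors *fz*, *fz2* and *ptc* and the inhibitors *Dad* and *brk*. They were at 9 of 35 genes of growth and MAP kinase signalling (25.7%), such as *Myc*, *foxo*, *InR*, the ETS factors *pnt* and *aop* and the feedback inhibitor *sty*. Glycolysis and trehalose use had 6 of 15 (40%), which were *Hex-A*, *Ald1*, *Pgk*, *Eno*, *Ldh* and *Treh*. Of 23 genes of heat shock and chaperones 4 had a member (17.4%), and all of these, *Hsp23*, *Hsp26*, *Hsp27* and *Hsp68*, are heat-inducible. *pnt* had 3 sites, and that at chr3R:23295123-23295758 had a peak in every rabbit library, at 5.57, 5.57 and 5.77 in control, 3.62, 3.78 and 5.27 after *eff* knockdown, and *cul4* knockdown gave 5.03, 6.02 and 6.96. At *Hsp26*, a small heat shock protein gene (chr3L:9377073-9377735), the fold was 6.02, 5.56 and 8.32 in control, 3.01 in 1 *eff* knockdown library and 4.51, 5.48 and 7.35 after *cul4* knockdown. In each of these 4 lists more genes had a site with CP190 than a member, with 20, 15, 9 and 8 genes.

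Housekeeping lists also had fewer genes with a member than with a Cul4 site with CP190. The share with a member was above the 5.62% of all named genes for cytoplasmic ribosomal proteins and near it for translation initiation factors (6.82%). With promoters of 1 kb to either side the latter was 4.55%, against 5.55% of all named genes. Of 87 genes of cytoplasmic ribosomal proteins 8 had a member (9.20%) and 66 a Cul4 site with CP190 (75.9%). No gene of the 73 for mitochondrial ribosomal proteins had a member, while 25 had a site with CP190. The corresponding counts were 1 and 17 of 48 for the proteasome, 3 and 22 of 44 for translation initiation factors, 2 and 24 of 38 for the ubiquitin and cullin pathway, and 9 and 127 of 269 for snoRNA genes. At *RpL10*, the ribosomal protein gene site with the highest control fold percentile, which also touches a promoter of *CkIIalpha* (chr3L:23094954-23095699), the fold was 7.12, 7.995 and 8.10 in control and 4.89, 4.91 and 3.51 after *cul4* knockdown, below all control values, with no peak after *eff* knockdown. Lists for other tissues were mixed. Members were at 0 of 119 odorant and gustatory receptor genes, 0 of 121 cuticle genes, 0 of 16 neuronal genes, 3 of 15 muscle genes and 1 of 12 Hox genes, which was *Antp*. The remaining lists had 9 of 40 (cytoskeleton and adhesion), 4 of 12 (basement membrane), 4 of 25 (insulator proteins, with *Trl*, the gene of the GAGA factor), 5 of 36 (cell cycle and replication), 3 of 28 (Toll, Imd and JAK/STAT), 1 of 15 (germline), 8 of 312 (tRNA genes), 4 of 32 (snRNA genes) and 109 of 2819 (ncRNA genes).

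**Figure D4:**
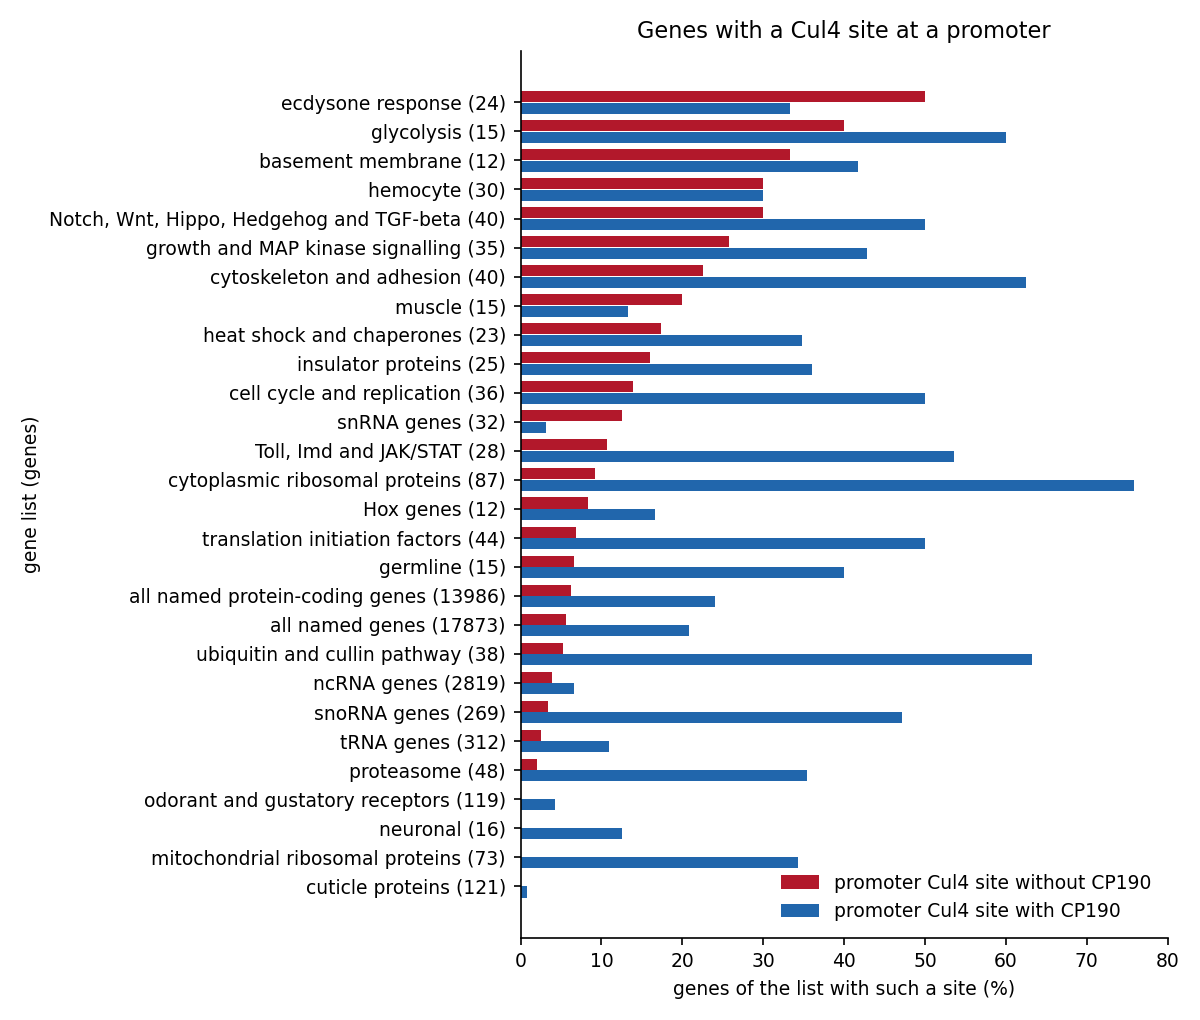
Percent of the genes of each list (horizontal axis) that had a member or a Cul4 site with CP190 at a promoter, with the number of genes in parentheses (vertical axis, ordered by the share with a member). The ecdysone response list is at 50% for members, above its 33.3% with CP190, while cytoplasmic ribosomal protein genes are at 9.20% and 75.9%.

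The DNA under the summits was searched for 12 motifs. Within 100 bp of the summit, the M1BP motif GTGTGACC was found at 10 members (1.15%), at 264 sites with CP190 (11.9%) and in 4.83% of the same windows around all 23232 distinct start sites. The DRE core TATCGATA was found at 3 members (0.346%), at 174 sites with CP190 (7.82%) and at 5.54% of start sites. At the 660 members with no CP190 peak in any control library the counts were 1 and 0. GAGAGAG, which the GAGA factor binds, went the other way, with 92 members (10.6%), 56 sites with CP190 (2.52%) and 4.48% of start sites. The initiator letters TCAGTT were found at 225 members (25.9%), 14.6% of sites with CP190 and 21.3% of start sites. The GC content of the windows was 47.0% at members, 42.3% at sites with CP190 and 41.8% at start sites. The part of base composition in these shares was not tested. A match is a description of letters and not a bound site.

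Shares were closer together for the other motifs. TATAAA, the letters that the TATA-binding protein reads, was at 18.0% of members, 20.1% of sites with CP190 and 26.3% of start sites, and CAGCTG (an E-box) at 8.99%, 12.1% and 12.4%. TTCNNNGAA (for STAT) was at 6.34%, 6.42% and 6.05%, and TGANTCA (for AP-1) at 4.15%, 4.36% and 3.90%. AGATAAG (for GATA factors), CCGGAAG (for ETS factors), CTCTTTTC (for the TCT initiator) and TGCATATT (part of the Su(Hw) site) were each at 0.461% to 2.07% of members. All were searched on both strands. Palindromic letters such as those of the DRE and the E-box are counted once, and no motif contains another, though matches can overlap in repeats.

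Members that carried GAGAGAG or TCAGTT in the printed window are shown next because these letters were commoner at members. They are the 3 and 2 members of highest control fold with a match that have at most 30 bases of UTR in the window, with 1 chromosome arm left out, and the choice was made after the shares were known. For the initiator, members already printed were passed over, such as *csw*, whose window also holds these letters.
Rox8, chr3R:24046617-24046767: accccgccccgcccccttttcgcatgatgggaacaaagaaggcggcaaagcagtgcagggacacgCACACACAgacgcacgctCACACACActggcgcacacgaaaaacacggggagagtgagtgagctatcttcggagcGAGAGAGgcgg
lncRNA:CR44619, chrX:12750744-12750894: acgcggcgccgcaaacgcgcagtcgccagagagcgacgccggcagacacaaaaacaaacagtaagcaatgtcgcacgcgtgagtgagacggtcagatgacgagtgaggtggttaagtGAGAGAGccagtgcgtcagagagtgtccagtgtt
klu, chr3L:11010461-11010611: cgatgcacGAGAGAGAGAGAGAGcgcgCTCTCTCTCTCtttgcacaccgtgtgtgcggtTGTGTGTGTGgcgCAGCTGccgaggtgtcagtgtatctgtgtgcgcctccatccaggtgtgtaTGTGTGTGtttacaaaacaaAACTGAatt
snRNA:LU, chr2L:3046714-3046864: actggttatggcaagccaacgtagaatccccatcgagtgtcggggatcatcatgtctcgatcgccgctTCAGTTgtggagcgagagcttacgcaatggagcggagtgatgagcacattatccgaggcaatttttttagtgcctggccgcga
pnt, chr3R:23295337-23295487: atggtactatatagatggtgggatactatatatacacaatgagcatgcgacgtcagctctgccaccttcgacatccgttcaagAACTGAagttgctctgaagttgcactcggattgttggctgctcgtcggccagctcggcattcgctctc

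The first 3, at *Rox8* (an RNA-binding protein), *lncRNA:CR44619* and *klu* (a zinc-finger factor), hold GAGAGAG or its complement in capitals, and that of *klu* holds long runs of it beside stretches of alternating T and G. The last 2, at *snRNA:LU* and *pnt*, hold the initiator letters. For contrast, the strongest sites with CP190 that held the M1BP motif or the DRE, chosen in the same way, were at *unc-119* and *CG3032*, and the second also holds the complement of CAAGCAGT.
unc-119, chrX:7291297-7291447: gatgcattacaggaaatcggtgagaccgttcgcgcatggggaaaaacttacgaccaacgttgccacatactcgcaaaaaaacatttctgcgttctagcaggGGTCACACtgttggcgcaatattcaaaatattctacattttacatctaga
CG3032, chrX:7015171-7015321: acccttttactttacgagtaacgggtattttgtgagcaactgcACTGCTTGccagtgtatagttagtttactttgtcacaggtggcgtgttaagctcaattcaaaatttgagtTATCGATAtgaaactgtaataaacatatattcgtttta

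**Figure D5:**
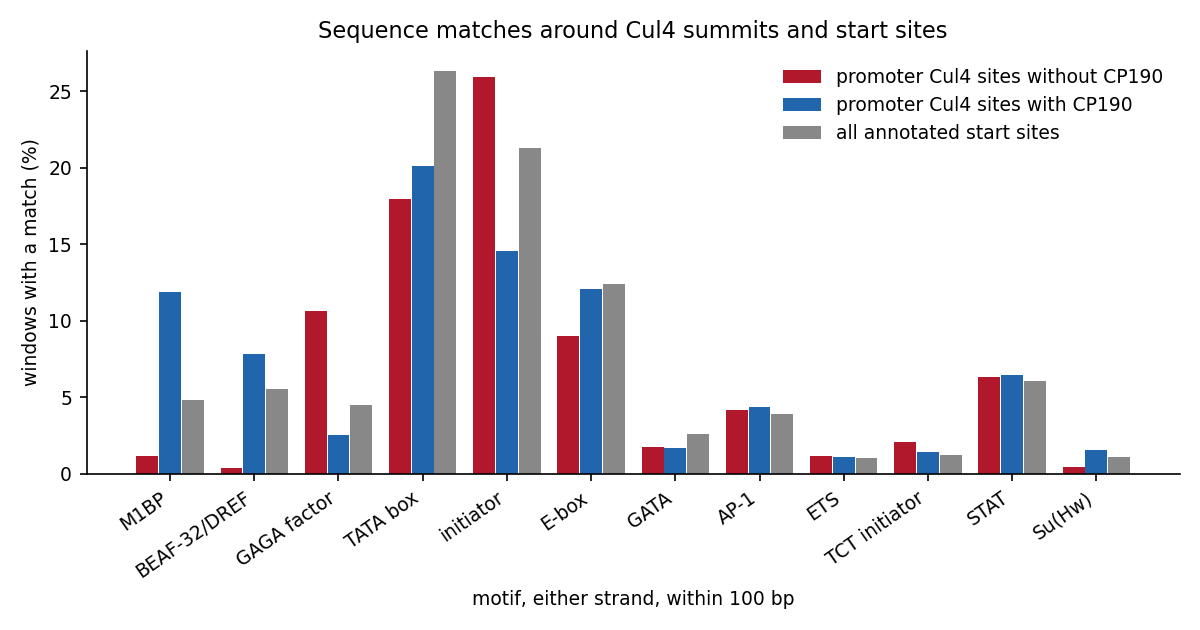
Percent of windows of 201 bp with a match to each of 12 motifs on either strand (vertical axis) around the summits of members, around the summits of promoter Cul4 sites with CP190 and around all annotated start sites (horizontal axis, by motif). M1BP is at 1.15%, 11.9% and 4.83% of the windows and the GAGA factor motif at 10.6%, 2.52% and 4.48%.

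The octamers noticed in the printed windows were then counted everywhere. CAAGCAGT lay within 100 bp of the summit at 24 members (2.76%), 117 sites with CP190 (5.26%) and 0.809% of start sites. It was concentrated among strong sites in both classes, with 13 of 186 members in the highest quartile of control fold (6.99%) against 2 of 226 in the lowest (0.885%), and 96 of 514 sites with CP190 in the highest quartile (18.7%) against 5 of 537 in the lowest (0.931%). It is thus no letter sequence of members alone. The 24 members with it had a median fold percentile of 81.9 against 56.1 for the other 844. They were called in 54.2%, 29.2% and 0% of cases after *eff* knockdown and in 87.5%, 75% and 91.7% after *cul4* knockdown, against 80.8%, 21.5% and 4.03% and 71.7%, 57.6% and 75.1% for the rest. No *eff* knockdown library called 11 of the 24 (45.8%), against 19.2% of the others. The repeat CACACACA was found at 125 members (14.4%), 174 sites with CP190 (7.82%) and 4.05% of start sites, with no order by strength among the members (12.4%, 18.2%, 14.2% and 12.9% from the lowest to the highest quartile). Both octamers were chosen from these same sites, and no test was made.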

How the data were processed

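ChIP-seq peak lists of 30 libraries were used, and 9 input libraries have no list. The authors trimmed 50 bp reads with cutadapt 3.4, aligned them to the release 6 (dm6) genome with Bowtie2 2.4.2, kept reads of mapping quality 20 with SAMtools 1.12, took out duplicates with Picard and ran MACS2 2.2.7.1 on each ChIP library with input as background, at a q of 1e-09. Per the deposited lists, the fold enrichment is the ratio of the summit pileup to the local background. The authors' lists also give −log10 p and −log10 q, and a score, −log10 q written as a whole number, that was not used further. Each list holds the calls of 1 library. The study filtered its merged peaks against the dm6 ENCODE blacklist, and no such filter was applied here. The lists carry no totals of reads, so depth was judged from the lowest background that fold and p imply under the Poisson model of MACS2 (4.49 to 33.2 reads), and binding was compared through calls.

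Merging, calls and exact tests were run in Python 3.11.15 with pandas 2.3.3 and numpy 2.4.6, and were tested on simulated data. Transcripts were those of Ensembl 115 (BDGP6.54, the same build) without transposable elements, a later annotation than the study used, and 485 unnamed entries counted as promoters but gave no gene. The share of a control library was taken over members defined with that library left out, and the share of a knockdown library is its mean over the same 3 definitions. The members and gene lists were chosen with earlier results of these data known. Named in the text are the 10 members of highest mean control fold percentile, up to 10 each called in all mouse antibody libraries, in all *eff* knockdown libraries, in no knockdown library or with CP190 gained, members at genes of the lists (a selection of 112 sites), and those at genes drawn in the study's ChIP panels. The 8 sequences shown first follow the same order without chromosome arm 2R; the others, the 2 octamers and *Rox8*, *klu*, *lncRNA:CR44619*, *snRNA:LU*, *unc-119*, *CG3032* and the genes with most sites were chosen after their values were seen. Alternatives were sites from 2 of 3 libraries, no CP190 or Su(Hw) peak in any control library, an overlap of 50%, −log10 q of at least 20, promoters of 1 kb to either side, lists of equal length, each library left out and a replicate block. The *eff* knockdown libraries taken singly and promoters of protein-coding genes only were added after the data were seen. Same-numbered libraries did not deviate together (r from -0.206 to 0.279, with all 3 above 0.1 in 0 of 6 comparisons), so numbers were not used as pairs.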

Additional observations from a re-analysis of the deposited data

How the results depend on the processing

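The number of members ran from 660 (no CP190 or Su(Hw) peak in any control library) to 974 (without control Cul4 replicate 3). The fall in Cul4 at members kept its direction under every alternative, from -81.5 to -44.5 percentage points for *eff* knockdown and from -31.7 to -22.9 for *cul4* knockdown with 1 library left out, and the mouse antibody stayed below the sites with CP190 by 10.7 to 11.6 points with any mouse library left out. Members lost after *eff* knockdown numbered 91 when no control library had CP190, 10 of 31 with lists of equal length, 677 without *eff* replicate 1 (the 2 shortest lists only) and 173 to 677 over all libraries left out. Members lost after *cul4* knockdown numbered 31 of 444 with lists of equal length, which test fewer members. CP190 gains were 2 and 2 with a 50% overlap and 4 and 13 with lists of equal length, for *eff* and *cul4* knockdown. The *cul4* change of members minus that of sites with CP190 turned to 0.442 at −log10 q of at least 20 and to 0.961 in quartile 3 of control fold, and ran from -2.01 to 0.931 with 1 library left out, the last without control Cul4 replicate 1. For Su(Hw), the *eff* difference ran from -0.0192 (without *eff* replicate 2) to 0.115, and the *cul4* difference was 0 with a 50% overlap. The causes were not tested. The other 172 values that answer a comparison kept their direction or lay within 1.5 times the reported count. As a replicate block, with differences within same-numbered libraries, the Cul4 differences were -59.6 and -28.1 with an exact sign-flip p of 0.25, the smallest possible, and no p in the report reached 0.05 under any design. With promoters of 1 kb to either side, Hox, proteasome, snoRNA and translation initiation factor genes had 0, 2, 5 and 2 genes with a member. Without replicate 2 of the control CP190 libraries 704 members were left. The number of reads behind each list was not used here, so a missing peak, as in *eff* library 3, does not show that Cul4 was absent.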

Other observations

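Several genes had more than 1 member. *fru*, *ps* and *shn* had 4 member sites each, and *Hk*, *HmgD*, *SNF4Agamma*, *Syp*, *cnc*, *gce*, *lola*, *mam*, *pnt* and *srp* had 3. Many of these are long genes with alternative promoters, such as *fru* and *lola*, which encode families of zinc-finger proteins from 1 locus. Sites of 1 gene are not independent of each other.

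Members were also split by the motif letters within 100 bp of their summit, as a description with no test. Of the 18 members with the TCT initiator letters, 0 lacked Cul4 throughout the *eff* knockdown, and 20.4% of the other members did. For the initiator letters the shares were 16.4% with and 21.2% without, for TATAAA 26.3% and 18.5%, and for the GAGA factor motif 15.2% and 20.5%. The 10 members with the M1BP motif had a median control fold percentile of 20.4, against 57.4 for the rest, and 5 of them had no peak after *eff* knockdown. After *cul4* knockdown, which depends less on 1 library, 13 of 92 members with the GAGA factor motif (14.1%) and 19.8% of those without it had no Cul4 peak. Several splits were made, the groups are small and most *eff* knockdown calls come from library 1.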
